A study of Bos taurus with 56 samples.

Results

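Open chromatin on cattle chromosomes 18, 19 and 25 was followed from the immature oocyte to the elongating embryo. The regions described are all ATAC-seq peaks whose chromosome is 18, 19 or 25 in any of 11 merged peak lists, 71072 peaks of 673059 in all. Chromosome 18 held 25574 of them, chromosome 19 held 28107 and chromosome 25 held 17391, and 587701 peaks on the 26 other autosomes served for comparison. ATAC-seq uses a transposase that cuts DNA where chromatin is open, and stretches with many cuts are called as peaks. The labels give 56 libraries of Bos taurus in 11 groups, with pools of oocytes or embryos as the material. The oocytes were at the germinal vesicle stage (GV, 6 libraries), arrested in meiotic prophase, or at metaphase II (MII, 5 libraries), mature and ready for fertilisation. The embryos were at the 2-cell (6 libraries), 4-cell (6), 8-cell (5), 16-cell (5), Morula (6) and Blastocyst (3) stages, or were day 14 elongating embryos (6). A second morula group (4 libraries) and a second blastocyst group (4 libraries) were labelled as derived in vivo. The labels name no breed, sex, parity, treatment or genotype for any group, and do not say how the oocytes and embryos of the remaining groups were obtained. Peak lists hold no expression, so the labelled stages could not be checked against marker genes.

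A gene-dense chromosome carries many genes in a short length, and such chromosomes also tend to be rich in GC and in the promoters of widely used genes, which are often accessible. In conserved synteny, cattle chromosome 19 matches human chromosome 17, chromosome 25 matches parts of human chromosomes 7 and 16, and chromosome 18 matches the long arms of human chromosomes 16 and 19. Chromatin of the mammalian oocyte and early embryo is remodelled on a large scale, and in cattle the main activation of the embryonic genome falls around the 8-cell to 16-cell stage. The blastocyst then sets apart the inner cell mass from the trophectoderm, and the elongating embryo of the second week consists largely of trophoblast.

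The gene-dense label was checked against a gene table of the later assembly ARS-UCD2.0, used for counts of protein-coding gene names per chromosome and for no position. Chromosome 18 had 1232 such genes, chromosome 19 had 1192 and chromosome 25 had 705. Per Mb of the span covered by the peak lists these were 18.7, 18.6 and 16.4 genes, the highest 3 values among the 29 autosomes. The 26 other autosomes had a median of 7.22 genes per Mb and ranged from 3.89 to 13.4. The 3 chromosomes spanned 66.0, 64.0 and 42.9 Mb, together 173 Mb or 6.89% of the 2512 Mb of autosomes in the lists.

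The member peaks numbered 545 of 4382 in GV oocytes, 56 of 730 in MII oocytes, 219 of 2636 in 2-cell, 382 of 5810 in 4-cell, 5228 of 59186 in 8-cell and 5696 of 75925 in 16-cell embryos. The later lists held 5462 of 88858 in Morula, 3803 of 57039 in morulae derived in vivo, 84 of 3397 in Blastocyst, 57 of 2587 in blastocysts derived in vivo and 49540 of 372509 in day 14 embryos. Each list merges the libraries of a group and gives a chromosome, a start and an end, so that depth and the spread between libraries are unknown. No p-value is therefore given, and the 95% intervals below are exact Clopper-Pearson intervals that cover counting error only and treat neighbouring peaks as independent. To set lists of such unequal length side by side, each chromosome's peaks per Mb were divided by the pooled peaks per Mb of the 26 other autosomes, here called relative density, where 1 is the level of those autosomes in the same list.

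All 3 chromosomes were dense in GV oocytes, near the level of the other autosomes at the 4-cell stage, moderately dense at the 8-cell stage, sparse in both blastocyst lists and dense again at day 14. In GV oocytes chromosome 18 carried 259 peaks, a relative density of 2.59 (interval 2.27 to 2.94) and the highest of the 29 autosomes. Chromosome 19 carried 164 peaks at 1.69 (1.44 to 1.98) and chromosome 25 carried 122 peaks at 1.88 (1.55 to 2.25). The other autosomes ranged from 0.349 on chromosome 22 to 2.41 on chromosome 13, so that chromosomes 19 and 25, at ranks 5 and 4, lay within that range. The MII list was too short to place them, with 27, 15 and 14 peaks and relative densities of 1.54 (1.01 to 2.26), 0.882 (0.491 to 1.47) and 1.23 (0.668 to 2.08) on chromosomes 18, 19 and 25. At the 2-cell stage the values were 1.32 (1.06 to 1.64), 1.25 (0.989 to 1.57) and 1.28 (0.958 to 1.68). At the 4-cell stage they were 1.03 (0.870 to 1.21), 0.934 (0.780 to 1.11) and 1.06 (0.858 to 1.29), with ranks of 14, 17 and 12 in the middle of the autosomes.

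In the 8-cell list, around the time of genome activation, chromosome 18 was the densest autosome. Chromosome 18 held 2292 peaks there, 34.7 per Mb against 22.2 per Mb on the other autosomes, a relative density of 1.56 (1.496 to 1.628) and rank 1. No other autosome was above 1.30, the value of chromosome 3. Chromosome 19 had 1.23 (1.17 to 1.29, rank 4) and chromosome 25 had 1.24 (1.17 to 1.32, rank 3). The last 25% of chromosome 18 held 43.7% of its 8-cell peaks. Without the last 25% of every autosome, an alternative added after seeing the data, chromosome 18 was less dense than chromosome 19 in this list. From the 8-cell to the 16-cell list the value of chromosome 18 went to 1.15 (1.104 to 1.202), the lowest ratio between these lists of any autosome at 0.738. Chromosomes 19 and 25 stood at 1.15 (1.098 to 1.198) and 1.08 (1.02 to 1.14) in 16-cell embryos.

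By the morula stage the 3 chromosomes had parted. Chromosome 18 had a relative density of 1.05 (1.005 to 1.091) in Morula, chromosome 19 of 0.913 (0.873 to 0.954) and chromosome 25 of 0.766 (0.722 to 0.813). The ratios of Morula to 8-cell relative density, 0.671, 0.743 and 0.617, were the lowest 3 of the 29 autosomes, against a median of 0.994 and a range of 0.752 to 1.23 on the others. The in vivo morula list did not repeat this ranking. Chromosome 27 went from 954 8-cell peaks to 630 in vivo morula peaks. That was a larger relative fall than 2292 to 1688 on chromosome 18 or 1750 to 1447 on chromosome 19. In morulae derived in vivo the relative densities were 1.15 (1.10 to 1.21), 1.02 (0.964 to 1.07) and 0.7004 (0.648 to 0.756). Chromosome 25 thus ranked 27 and 28 of 29 in the morula lists, with 1119 and 668 peaks. For chromosomes 18 and 19 the counting intervals of both morula lists did not overlap, with the higher value in vivo, while for chromosome 25 they overlapped. The ratios of Morula to in vivo relative density were 0.911, 0.898 and 1.09 on chromosomes 18, 19 and 25. All lay within the range of the other autosomes, 0.853 to 1.33. The difference between the groups was not tested. The chromosome 18 values rest on its distal end: without the last 25% of every autosome, an alternative added after seeing the data, they were 0.988 in 16-cell embryos, 0.838 in Morula and 0.857 in morulae derived in vivo.

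Both blastocyst lists were sparse on all 3 chromosomes. Blastocyst had 23 peaks on chromosome 18, 32 on chromosome 19 and 29 on chromosome 25, with relative densities of 0.276 (0.175 to 0.416, rank 29), 0.396 (0.271 to 0.561, rank 25) and 0.536 (0.358 to 0.772, rank 22). In vivo blastocysts had 24, 22 and 11 peaks, with 0.372 (0.238 to 0.555), 0.351 (0.220 to 0.533) and 0.262 (0.131 to 0.470) at ranks 26, 28 and 29. Other autosomes were about as sparse, with lowest values of 0.279 on chromosome 22 in Blastocyst and 0.352 on chromosome 11 in vivo. The highest were 3.62 on chromosome 27 and 2.36 on chromosome 17. In Blastocyst the pooled level of the other autosomes, 1.26 peaks per Mb, was above their median of 0.932. From the in vivo morula to the in vivo blastocyst list the ratios of relative density were 0.323, 0.346 and 0.375, the lowest 3 of the 29 autosomes. From Morula to Blastocyst the ratios were 0.264, 0.434 and 0.6996 at ranks 29, 26 and 16, beside a median of 0.783. Chromosome 25 thus lay in the middle of the autosomes in that pair. The relative density for Blastocyst on chromosome 25 was 0.311 when peaks of at least 329 bp, the median width over all lists, were kept. Without the last 25% of every autosome the in vivo values were 0.212 on chromosome 18 and 0.119 on chromosome 25.

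At day 14 these were the densest 3 autosomes. Chromosome 19 held 20339 peaks or 318 per Mb, chromosome 25 held 12742 or 297 per Mb and chromosome 18 held 16459 or 249 per Mb, against 136 per Mb on the other autosomes. The relative densities of 2.33 (2.29 to 2.36), 2.18 (2.14 to 2.22) and 1.83 (1.80 to 1.86) compare with a highest value elsewhere of 1.54, on chromosome 29. Day 14 peaks covered 11.7% of chromosome 19, 10.9% of chromosome 25 and 9.07% of chromosome 18, against 4.47% of the other autosomes. Relative to Morula the day 14 values of chromosomes 18, 19 and 25 were 1.74, 2.55 and 2.84 times as high, where the other autosomes had a median ratio of 0.973 and a highest of 1.80. Over the 11 lists chromosome 18 was above the median of the other autosomes in 9, chromosome 19 in 6 and chromosome 25 in 7.

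**Figure D1:**
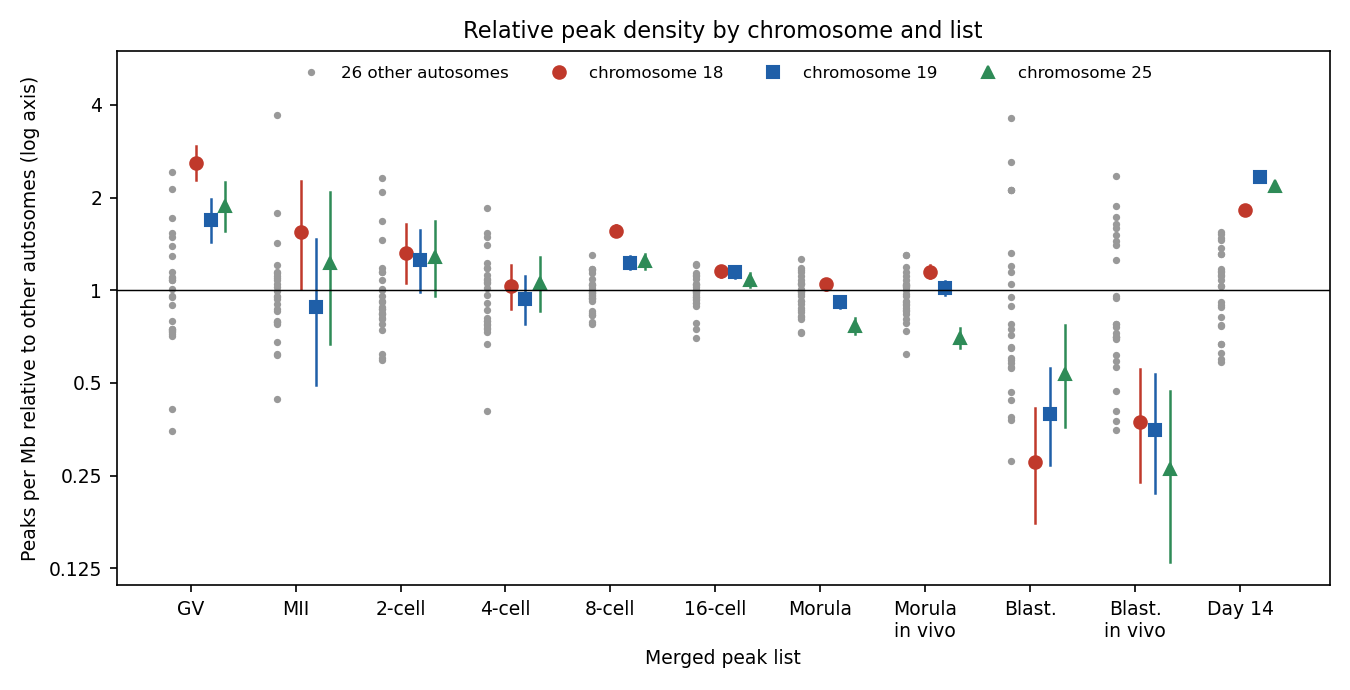
Relative peak density (peaks per Mb divided by peaks per Mb over the 26 other autosomes, log axis) of chromosomes 18 (red circles), 19 (blue squares) and 25 (green triangles) in the 11 lists, with exact 95% intervals for counting error, and of each of the other autosomes (grey). All 3 chromosomes lie above the line at 1 in GV oocytes and at day 14 and below it in both blastocyst lists.

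The density of wide peaks followed a like course, and differed more between chromosomes. Peaks of 1000 bp or more had a relative density of 2.03 (1.83 to 2.24, rank 1) on chromosome 18 in 8-cell embryos, against 1.49 for narrower peaks. On chromosome 25 wide peaks stood at 1.34 in 8-cell embryos, 0.841 in 16-cell embryos, 0.672 in Morula and 0.630 in morulae derived in vivo. At day 14 wide peaks had relative densities of 2.35, 3.13 and 2.90 on chromosomes 18, 19 and 25, above the 1.80, 2.29 and 2.15 of narrower peaks. Day 14 peaks that overlapped an 8-cell, 16-cell or morula peak had relative densities of 1.72, 1.71 and 1.44 at ranks 1, 2 and 3. Day 14 peaks found in no other list had 1.85, 2.47 and 2.34.

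Peak width differed from that of the other autosomes in some lists, and on all 3 chromosomes at day 14. The narrowest width differs between lists (125 bp at day 14, 161 bp in Morula, 193 bp in 16-cell and 217 bp in 8-cell embryos on these chromosomes), so widths are compared within a list. At the 8-cell stage the median peak was 486 bp on chromosome 18, 476 bp on chromosome 19 and 477.5 bp on chromosome 25, where the median of the other autosomes' medians was 457.5 bp and the highest 481 bp. Chromosome 18 had the widest median of the 29 autosomes in the 8-cell (486 bp), Morula (550 bp against 519.5 bp) and in vivo morula lists (606 bp against 551.75 bp). At day 14 the medians were 236, 240 and 240 bp on chromosomes 18, 19 and 25 against 211 bp, and all 3 were above the highest other autosome at 228 bp. The share of day 14 peaks of 1000 bp or more was 5.35%, 5.58% and 5.53%, against a median of 3.82% and a highest value of 5.14% elsewhere. In GV oocytes the medians of 377, 364.5 and 360 bp lay around the 365 bp of the other autosomes. Chromosome 25 had few wide peaks in the 16-cell list (8.62%, rank 28) and in both morula lists (19.3% and 19.5%, ranks 27 and 26), although its median width ranked 5 in each morula list.

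Peaks were next counted in 1 Mb windows, a window being called rich in a list when it held at least 2 times the autosomal mean of that list and at least 3 peaks. Of the 2529 autosomal windows, 2.45% were rich in 6 or more lists. On chromosome 18 this held for 8 of 67 windows, the highest share among the autosomes, and on chromosomes 19 and 25 for 3 of 65 and 2 of 43. The 8 windows of chromosome 18 lie at 43-44, 51-52, 53-54, 54-55, 55-56, 56-57, 57-58 and 62-63 Mb, mostly in its distal part. Those of chromosome 19 lie at 27-28, 28-29 and 43-44 Mb and those of chromosome 25 at 2-3 and 26-27 Mb. With a limit of 3 times the mean the counts were 1, 0 and 0, and chromosome 25 had 0 when peaks of at least 329 bp were kept.

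List by list, rich windows were common where density was high, which follows largely from how they were defined. In GV oocytes 28 windows of chromosome 18, 17 of chromosome 19 and 12 of chromosome 25 were rich, against 14.4% of all autosomal windows, so that 41.8%, 26.2% and 27.9% of their windows were rich. In 8-cell embryos the counts were 20, 9 and 7 (6.56% of all autosomal windows), in 16-cell embryos 10, 6 and 4 (5.54%) and in Morula 8, 3 and 3 (5.46%). The in vivo morula list had 16 rich windows on chromosome 18, 5 on chromosome 19 and 2 on chromosome 25 (9.09% of all autosomal windows). At day 14, 25, 35 and 18 windows were rich against 14.8% of all, which is 53.8% of the windows of chromosome 19. In 2-cell embryos 14 windows of chromosome 18, 7 of chromosome 19 and 7 of chromosome 25 were rich, against 9.61% of all autosomal windows. The shares of chromosomes 18 and 25 there, 20.9% and 16.3%, were the highest 2 of the autosomes, while that of chromosome 19 was 10.8%. In 4-cell embryos 8, 6 and 6 were rich (11.5% of all), and in MII oocytes 0, 0 and 1 (0.751%). In Blastocyst 3, 3 and 4 windows were rich against 9.05% of all, and in blastocysts derived in vivo 2, 2 and 1 against 8.74%. On chromosome 18, 54 of 67 windows (80.6%) held no Blastocyst peak and 51 of 67 (76.1%) held no in vivo blastocyst peak. Empty windows were common on other autosomes too. In Blastocyst their share ran from 42.1% on chromosome 8 to 79.0% on chromosome 22. In vivo it ran from 37.7% on chromosome 9 to 78.8% on chromosome 13, above that of chromosome 18.

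**Figure D2:**
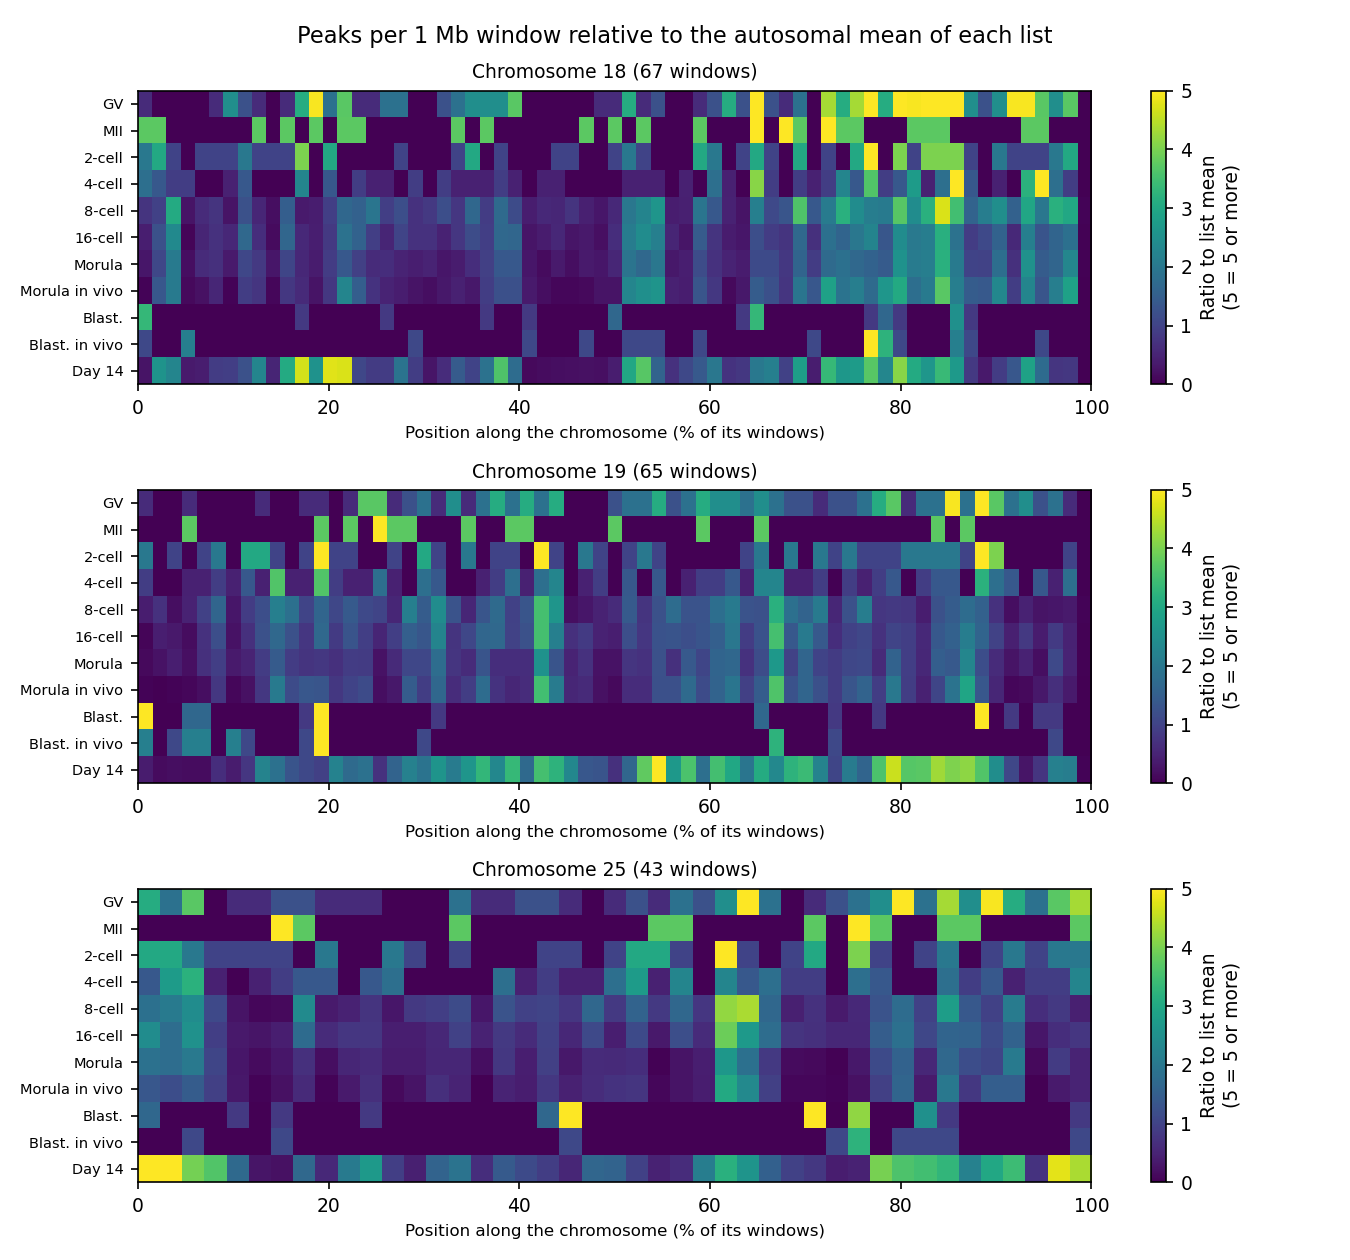
Peaks per 1 Mb window divided by the mean per autosomal window of the same list (colour, capped at 5), along chromosomes 18, 19 and 25 (x axis, percent of the chromosome's windows) in the 11 lists (rows). The bright columns at about 80% of chromosome 18 recur from GV oocytes to day 14, and the blastocyst rows are mostly dark.

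The distal part of chromosome 18 was crowded in most lists. The stretch from 50 to 58 Mb, chosen after its values were seen, is 12.1% of the chromosome's span and held 103 of the 259 GV peaks (39.8%), 7.96 times the autosomal mean of that list. It held 28 of 86 peaks in 2-cell, 49 of 150 in 4-cell, 546 of 2292 in 8-cell and 502 of 2213 in 16-cell embryos, which is 3.51, 2.79, 3.01 and 2.15 times the autosomal mean. The counts were 562 of 2353 in Morula, 424 of 1688 in morulae derived in vivo and 3592 of 16459 at day 14, or 2.09, 2.40 and 3.08 times the mean. In the shortest lists it held 4 of 27 MII peaks, 7 of 23 Blastocyst peaks (0.730 times the mean) and 11 of 24 in vivo blastocyst peaks. The last 25% of chromosome 18 held 54.7% of its 4-cell, 43.7% of its 8-cell, 38.0% of its 16-cell, 42.7% of its Morula and 45.3% of its in vivo morula peaks, the highest share of the 29 autosomes in each of these 5 lists. The medians of the other autosomes were between 25.04% and 32.04% in those lists. In GV oocytes the share was 56.8% (rank 3, other median 43.8%), and at day 14 it was 31.4% (rank 20, other median 35.3%), so that the day 14 share of this end lay below the median autosome.

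Chromosomes 19 and 25 were filled differently. On chromosome 19 the fullest window lay at 27-28 Mb in 8-cell (80 peaks) and 16-cell embryos (103 peaks), at 43-44 Mb in Morula (90) and in vivo morulae (80) and at 35-36 Mb at day 14 (740). The first 25% of chromosome 19 held 11.5% of its day 14 peaks, but 56.3% of its 32 peaks in Blastocyst and 72.7% of its 22 peaks in blastocysts derived in vivo. On chromosome 25 the fullest window lay at 27-28 Mb in GV oocytes (10 peaks) and 8-cell embryos (99), and at 26-27 Mb in 16-cell embryos (113), Morula (89) and in vivo morulae (67). At day 14 it lay at 0-1 Mb with 832 peaks. On chromosome 18 the fullest window was 56-57 Mb in the 8-cell (107 peaks), 16-cell (92), Morula (107) and in vivo morula lists (82), 57-58 Mb in GV oocytes (29) and 4-cell embryos (22), and 13-14 Mb at day 14 (697).

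Across the windows of a chromosome, peak numbers in consecutive lists were correlated. This is a description of the same windows in both lists and has no test. The gene content and base composition of the windows were not measured. Between the 8-cell and 16-cell lists Spearman's rho was 0.89 over 67 windows of chromosome 18, 0.88 over 65 of chromosome 19 and 0.87 over 43 of chromosome 25, the highest 3 of the autosomes, against a median of 0.76. Between in vivo and other morulae it was 0.94, 0.92 and 0.94 (median 0.86). From GV oocytes to 8-cell embryos it was 0.59 on chromosome 18 and 0.53 on chromosome 25, at ranks 2 and 3, and 0.27 on chromosome 19, where the median was 0.25. Between the 16-cell and Morula lists rho was 0.93, 0.85 and 0.83 at ranks 1, 6 and 14 (median 0.80). Toward day 14 the values were lower than these. From 8-cell embryos they were 0.55, 0.38 and 0.56 at ranks 4, 17 and 3 (median 0.39). From Morula they were 0.71, 0.65 and 0.79 at ranks 4, 12 and 1 (median 0.63).

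Sharing between consecutive stages was measured as the percentage of the shorter list's peaks on a chromosome that overlapped a peak of the longer list by at least 1 bp. Consecutive pairs have a list in common, so they are not independent of each other. Over 10 consecutive pairs and 2 pairs of lists of the same stage, chromosome 18 was above the median of the other autosomes in 8 of 12, chromosome 19 in 9 and chromosome 25 in 10, while chromosome 29 was above it in all 12. For the reverse share, that of the longer list's peaks found in the shorter list, the counts were 4, 5 and 8 of 12. The count for chromosome 18 was 5 when peaks of at least 329 bp were kept, and that for chromosome 25 was 5 without regions found in 2 or more of the 6 short lists. That last setting puts sharing at 0 by construction where both lists of a pair are short, so such pairs cannot be above the median.

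The early pairs rested on few peaks. Of the MII peaks, 1 of 27 on chromosome 18, 0 of 15 on chromosome 19 (upper 95% bound 21.8%) and 4 of 14 on chromosome 25 overlapped a GV peak, against 19.2% over all chromosomes. On chromosome 25 that is 28.6% (8.39 to 58.1), at rank 4. In the 2-cell list the same MII peaks were matched in 1, 0 and 3 cases, against 23.3%. Of the 2-cell peaks 8 of 86, 10 of 79 and 9 of 54 overlapped a 4-cell peak (9.30%, 12.7% and 16.7%, against 26.3% over all chromosomes). Chromosomes 18, 19 and 25 ranked 27, 25 and 17 of 29 in this pair, and 27, 18 and 12 with an overlap of at least 50% of both peaks (5.81%, 11.4% and 14.8% beside a median of 13.5%).

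At the step to the 8-cell list sharing on chromosome 18 was high when any overlap counted. Of its 150 4-cell peaks, 74 overlapped an 8-cell peak, 49.3% (41.1 to 57.6), the highest share among the autosomes, against 33% over all chromosomes. Chromosome 19 had 48 of 132 (36.4%, 28.2 to 45.2) and chromosome 25 had 31 of 100 (31%, 22.1 to 41.0). With an overlap of at least 50% of both peaks, the 3 chromosomes had 16%, 12.1% and 12% beside a median of 12.4%, and chromosome 18 ranked 7. The 8-cell peaks also covered more of chromosome 18, 2.34% against 1.38% of the other autosomes. Of the 8-cell peaks 45.6%, 48.2% and 48.1% overlapped a 16-cell peak on chromosomes 18, 19 and 25, against 45% over all chromosomes. Seen from the 16-cell list, 49.8%, 41.2% and 44.3% of its peaks overlapped an 8-cell peak, which were ranks 1, 3 and 2 beside a median of 34.6%.

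At the step to the morula the 3 chromosomes differed by the 1 bp rule. Of the 16-cell peaks on chromosome 18, 1185 of 2213 overlapped a Morula peak, 53.5% (51.4 to 55.6) and rank 1, against 47.2% over all chromosomes. Chromosome 19 had 48.1% (45.9 to 50.2, rank 12) and chromosome 25 had 44.0% (41.3 to 46.7, rank 23). With an overlap of at least 50% of both peaks, the shares were 28.02%, 26.3% and 25.1% at ranks 1, 3 and 4 beside a median of 22.0%, so that chromosome 25 was then above the median. From the Morula side the order was the opposite, with 47.7%, 49.0% and 51.3% of Morula peaks on a 16-cell peak, at ranks 3, 2 and 1 beside a median of 38.0%. In vivo morula peaks overlapped a Morula peak in 67.4%, 62.9% and 71.3% of cases, against 60.8% over all chromosomes, and chromosome 25 had the highest share of the autosomes. On chromosome 25, 476 of the 668 in vivo peaks had such a partner.

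Shares of the few blastocyst peaks had wide intervals. In Morula 8 of 23, 17 of 32 and 9 of 29 Blastocyst peaks were found on chromosomes 18, 19 and 25, against 32.8% over all chromosomes. In the day 14 list 18 of 23, 26 of 32 and 25 of 29 were found, which is 78.3% (56.3 to 92.5), 81.3% (63.6 to 92.8) and 86.2% (68.3 to 96.1), against 59.1%. Of the in vivo blastocyst peaks 9 of 24, 13 of 22 and 6 of 11 overlapped an in vivo morula peak (34.1% over all chromosomes), and 13, 15 and 8 overlapped a day 14 peak (46.8% over all). In the other blastocyst list 5, 12 and 8 of them were found, against 35%. Day 14 peaks cover 9.07% to 11.7% of these chromosomes and a median of 4.67% of the others, which moves with the day 14 shares; the part it plays was not tested.

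**Figure D3:**
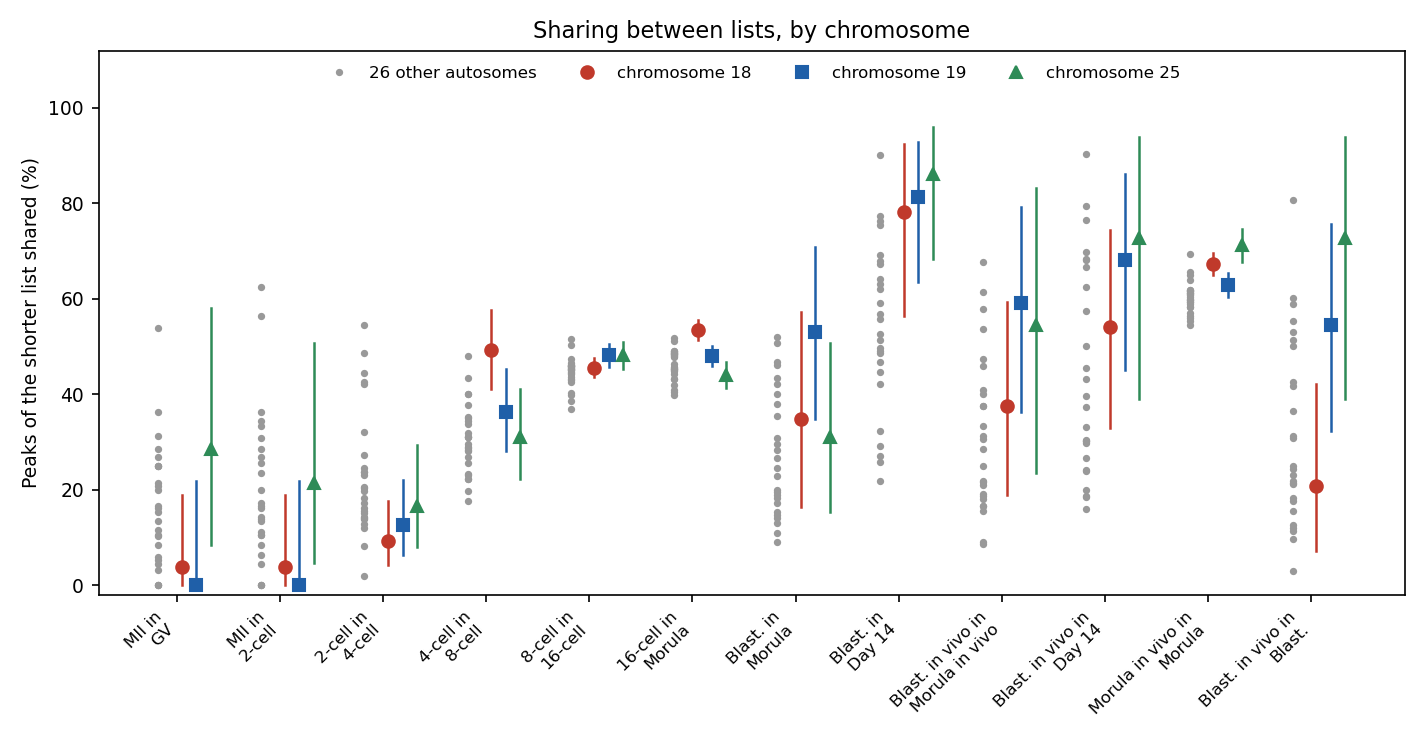
Percentage of the shorter list's peaks that overlap a peak of the longer list by at least 1 bp, for 12 pairs of lists, on chromosomes 18, 19 and 25 with exact 95% intervals and on each of the other autosomes (grey). By this 1 bp rule chromosome 18 has the highest share for 4-cell in 8-cell (49.3%, but rank 7 when 50% of both peaks must be shared) and 16-cell in Morula (53.5%, rank 1 under both rules), and the intervals are wide for MII and blastocyst peaks.

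Peaks of the 8-cell and both morula lists were found again at day 14 more often on these chromosomes than on any other autosome. Of the 8-cell peaks 57.2%, 58.3% and 56.7% on chromosomes 18, 19 and 25 overlapped a day 14 peak, against 37.2% over all chromosomes and a highest value of 46.5% among the other autosomes. Of the Morula peaks 69.3%, 75.4% and 73.9% did (45.8% over all, highest other 58.7%), and of the in vivo morula peaks 74.5%, 79.5% and 81.9% (50% over all, highest other 61.4%). The higher day 14 coverage given above applies to each of these shares. GV peaks differed less, with 61.4%, 58.5% and 62.3% on a day 14 peak, against 53.1% over all chromosomes. In 8-cell embryos 39.4% of the GV peaks of chromosome 18 were found, at rank 3, but 20.1% of those of chromosome 19 and 26.2% of those of chromosome 25, against 29.5% over all.

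Few peaks of the cleavage and morula lists on these chromosomes stood alone. In 8-cell embryos 29.5%, 27.4% and 28.4% of the peaks on chromosomes 18, 19 and 25 were in no other list, against 37% of all autosomal peaks. The shares were 20.2%, 20.4% and 23.2% in 16-cell embryos (31.3% of all), 17.7%, 13.4% and 13.9% in Morula (30.6%), and 14.1%, 11.2% and 6.89% in morulae derived in vivo (26.9%). In each of these 4 lists the 3 chromosomes held the lowest 3 shares of the 29 autosomes. With the day 14 list left out, an alternative added after seeing the data, the shares were 42.0%, 41.3% and 41.9% in 8-cell embryos, beside a median of 44.7%. In 16-cell embryos they were 31.8%, 35.5% and 38.6% beside a median of 40.6%, and chromosome 25 ranked 18. They were 32.7%, 32.2% and 32.4% in Morula, still the lowest 3 beside a median of 42.8%, and 25.6%, 26.9% and 20.7% in morulae derived in vivo beside a median of 34.5%. Peaks of the day 14 list itself stood alone in 82.5%, 86.3% and 87.4% of cases, against 81.8% of all autosomal day 14 peaks, and chromosomes 25 and 19 had the highest shares.

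**Figure D4:**
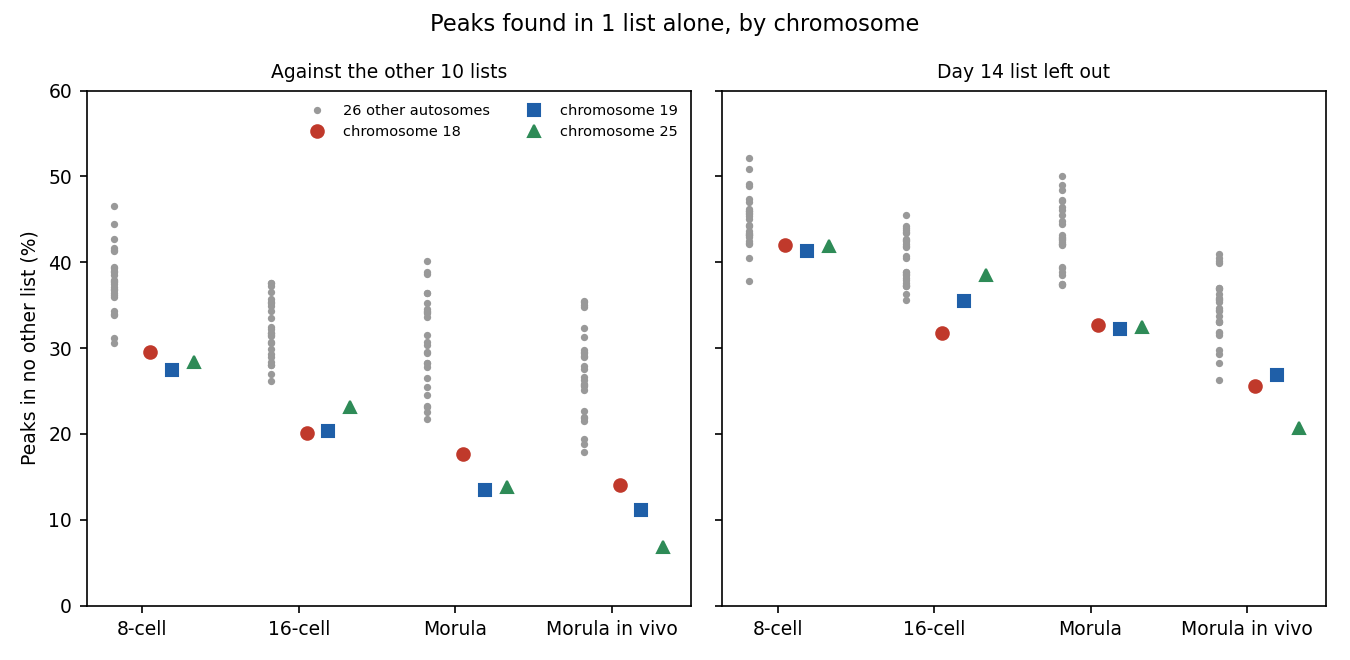
Percentage of peaks that overlap no peak of any other list, in the 8-cell and 16-cell lists and both morula lists, against the other 10 lists (left) and with the day 14 list left out (right), on chromosomes 18, 19 and 25 and on each of the other autosomes (grey). On the left all 3 chromosomes lie below every other autosome in each list; on the right they lie among the others in the 8-cell list, as do chromosome 25 in the 16-cell list and chromosome 19 in the in vivo morula list.

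When overlapping peaks of all lists were joined into regions, 613 regions of chromosome 18, 437 of chromosome 19 and 262 of chromosome 25 had a peak in all 4 of the 8-cell, 16-cell, Morula and in vivo morula lists. That is 9.29, 6.82 and 6.11 regions per Mb at ranks 1, 2 and 6, against a median of 4.50 and a range of 2.72 to 6.78 on the other autosomes. Of these regions 94.9%, 96.1% and 95.4% also had a day 14 peak, against 83.5% over all autosomes and a highest value of 88.4% on any other. In a blastocyst list 6, 3 and 6 of them had a peak, 0.979%, 0.686% and 2.29% beside a median of 3.04%. Regions open from the 8-cell stage to the morula were thus mostly listed again at day 14. The blastocyst lists hold 84 and 57 peaks on these chromosomes, too few to mark most of these regions. Their low blastocyst shares were therefore set by list length and say little about the regions.

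**Figure D5:**
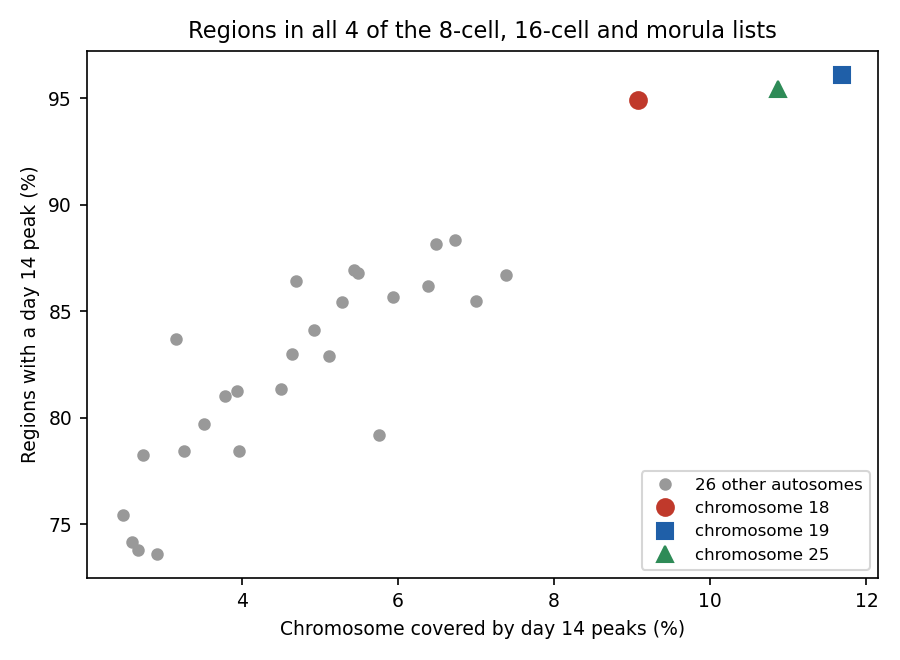
For each autosome, the percentage of regions with a peak in all 4 of the 8-cell, 16-cell and both morula lists that also have a day 14 peak (y axis), against the percentage of the chromosome covered by day 14 peaks (x axis). Chromosomes 18, 19 and 25 lie at the upper right, between 94.9% and 96.1%, and the other autosomes between 73.6% and 88.4% at lower coverage.

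Per Mb, regions that recur in nearly all lists were just below the median of the other autosomes on chromosomes 18 and 19 and above it on chromosome 25. Those in 8 or more of the 11 lists numbered 8 on chromosome 18 and 7 on each of chromosomes 19 and 25, where the other autosomes had a median of 10.5 and 0.0947% of all autosomal regions were of this kind. Per Mb the 3 chromosomes had 0.121, 0.109 and 0.163 at ranks 15, 18 and 10, beside a median of 0.123. Chromosome 25 had 4 regions in all 11 lists, among them (positions in UMD3.1, counted from 1) 32361879 to 32363294, 36108551 to 36109539 and 6039151 to 6040193. The region at 32361879 gave the widest GV, Blastocyst and in vivo blastocyst peaks of chromosome 25 (1011, 1200 and 1179 bp), and the region at 36108551 the widest MII, 2-cell and 4-cell peaks (763, 931 and 913 bp). No region of chromosomes 18 and 19 was in all 11 lists. Among the other autosomes the number of regions in all 11 lists, not scaled to length, ran from 0, on chromosomes 2, 12, 15, 22 and 23, to 16 on chromosome 14. On chromosome 18 the regions from 519 to 1545 and from 58241903 to 58242621 were in 10 lists, all but MII oocytes. On chromosome 19 the regions from 12572611 to 12575554 and from 11490802 to 11491987 had peaks in the 9 lists from embryos but in no list from oocytes. No gene is named at any region, since an annotation of this build was not used here.

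Some of the widest peaks of different lists lay close together, and others lay far apart. On chromosome 18 the widest GV peak ran from 57604364 to 57607874 (3511 bp) and had partners in 2-cell, 4-cell, 8-cell and day 14 lists. Further along lay the widest 8-cell peak of the 3 chromosomes, from 57709437 to 57717387 (7951 bp), in a region with peaks in GV oocytes, in 4-cell, 8-cell and 16-cell embryos, in both morula lists, in Blastocyst and at day 14. The widest Morula peak, from 57622760 to 57629027 (6268 bp), lay between them and had partners in 4-cell, 8-cell and 16-cell embryos, in morulae derived in vivo and at day 14. The widest 16-cell and in vivo morula peaks of chromosome 18 lay elsewhere, starting at 2384026 and 61142598. On chromosome 19 the widest peaks of the 8-cell (4861 bp), 16-cell (5073 bp), Morula (4316 bp) and in vivo morula lists (5447 bp) were all in the same place, in vivo from 43827844 to 43833290, with partners in the 4-cell and day 14 lists. On chromosome 25 the widest peaks of these lists were apart, starting at 1787544, 20010487, 2440616 and 16537118 in the same order. The widest day 14 peaks were from 49156387 to 49163449 on chromosome 18 (7063 bp), in no other list, from 42363220 to 42368719 on chromosome 19 (5500 bp) and from 33985846 to 33992679 on chromosome 25 (6834 bp). Both of the latter had partners in the 16-cell list and both morula lists. The widest peaks of the 8-cell list with no partner anywhere were narrower, from 45514434 to 45517311 on chromosome 18 (2878 bp), from 23988168 to 23990452 on chromosome 19 (2285 bp) and from 7827686 to 7829231 on chromosome 25 (1546 bp). The widest of Morula were from 31526381 to 31528057 (1677 bp), from 58081862 to 58083318 (1457 bp) and from 34193078 to 34194454 (1377 bp). At day 14 they were, beside the peak of chromosome 18 above, from 56345799 to 56349142 on chromosome 19 (3344 bp) and from 4018220 to 4021849 on chromosome 25 (3630 bp).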

How the data were processed

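ATAC-seq was done on 56 libraries of pooled cattle oocytes and embryos. Per the labels, the peaks of the libraries of a stage were merged and 1 list per group was deposited. Each line of a deposited list places 1 peak by chromosome, start and end in bp, on build UMD3.1. The tools were HOMER, bedtools, MACS2 and Bowtie2 2.3, per the submitters' processing notes. Not given in the sources used here are the step each tool served, the threshold for a peak, any shift for the transposase cut and the merging rule, each of which can change the number and width of peaks. Depth is unknown.

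Starts were read as counted from 0, a convention the lists do not state. Chromosome length was the last position in any list. A peak belonged to the 1 Mb window of its midpoint. Regions were named by rule: the widest peak and fullest window of each list, the 3 regions in the most lists, and the widest 8-cell, Morula and day 14 peaks in no other list. The members, measures and named-region rule were chosen with earlier results of these data known. With 1 list per group no test was made. Overlap counts were tested on simulated lists (12 of 12 pairs recovered) and checked against bedtools 2.31.1 (12 of 12 pairs equal). Computation was in Python 3.11.15 with scipy 1.17.1, pandas 2.3.3, numpy 2.4.6 and matplotlib 3.10.9. Alternatives joined peaks closer than 500 bp, kept peaks of at least 329 bp, left out the fullest window, took occupied 1 Mb windows as length, required 50% of both peaks to be shared, weighted shares by width, left out regions recurring in short lists, shifted windows by 0.5 Mb and raised the limit for rich windows to 3 times the mean.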

Additional observations from a re-analysis of the deposited data

How the results depend on the processing

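The 33 relative densities (11 lists on 3 chromosomes) all stayed within their counting intervals when occupied windows served as length. They did so in 30 cases with peaks closer than 500 bp joined, in 26 with peaks of at least 329 bp and in 32 without the fullest window. Joining gave day 14 values of 1.66, 2.02 and 1.87 on chromosomes 18, 19 and 25. Peaks of at least 329 bp gave 2.16, 2.81 and 2.61 at day 14, and 0.584 and 0.311 for Blastocyst on chromosomes 19 and 25. Without the fullest window chromosome 19 had 2.36 at day 14. Without the last 25% of every autosome, added after seeing the data, 19 of 33 stayed within their intervals; chromosome 18 had 1.97 in GV oocytes, 1.18 in 8-cell embryos and 2.00 at day 14, chromosome 19 had 1.33 in 8-cell embryos and 2.54 at day 14, and the values of chromosome 18 that went below 1 were 0.988 (16-cell), 0.838 (Morula) and 0.857 (morulae derived in vivo). Pairs with sharing above the median numbered 5 of 12 on chromosome 18 with peaks of at least 329 bp and 5 on chromosome 25 without recurring regions. Leaving out recurring regions puts sharing at 0 by construction in pairs in which both lists are short. These are GV with MII, MII with 2-cell, 2-cell with 4-cell and in vivo blastocyst with Blastocyst. Such pairs cannot be above the median in that setting, so its counts are not comparable with the main counts. Requiring 50% of both peaks gave 7, 8 and 11 of 12 pairs, with chromosome 18 at rank 7 for 4-cell peaks in 8-cell embryos and chromosome 25 above the median for 16-cell peaks in Morula. Windows rich in 6 or more lists numbered 1, 0 and 0 at 3 times the mean, and 0 on chromosome 25 with peaks of at least 329 bp. The cause of each other shift was not tested. No paired analysis was possible because each group has 1 merged list; for the same reason no library could be left out.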

Other observations

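Spacing between neighbouring peaks was short on these chromosomes at day 14, with median gaps of 1.11 kb on chromosome 18, 0.961 kb on chromosome 19 and 0.947 kb on chromosome 25, against a median of 1.92 kb on the other autosomes. Gaps under 5 kb made up 83.1%, 86.9% and 85.5% of day 14 gaps, the highest 3 shares, against a median of 71.0%. In 8-cell embryos the median gaps were 8.46, 11.95 and 9.69 kb against 14.6 kb, and chromosome 18 had the shortest of the 29 autosomes. In Morula they were 9.18, 10.5 and 12.1 kb against 11.2 kb, so that peaks of chromosome 25 lay farther apart than the median autosome there.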
